A study of Danio rerio with 6 samples.

Results

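Haemoglobin of jawed vertebrates is assembled from alpha and beta globin chains, each carrying a heme group. Zebrafish carry separate sets of adult (*hbaa*, *hbba*) and larval or embryonic (*hbae*, *hbbe*) globin genes, arranged in clusters in which alpha and beta genes lie side by side, and red cells change from the larval to the adult set as the fish grows. The 10 globin genes described here are the adult alpha genes *hbaa1* and *hbaa2*, the adult beta genes *hbba1* and *hbba2*, the larval alpha genes *hbae1.1*, *hbae1.3*, *hbae3* and *hbae5*, and the larval beta genes *hbbe2* and *hbbe3*. They were chosen by name, with earlier results of these data known, and 9 of the 10 could be matched to the 32105 genes of the count table. No row could be matched to *hbbe2*, for which no value is given.

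The globin genes were measured by bulk RNA-seq in 3 homozygous fr105 mutants (libraries 1, 2 and 3) and 3 wild-type siblings (libraries 4, 5 and 6). The fr105 allele is a CRISPR/Cas9 deletion within *ikzf1*, the gene for the haematopoietic transcription factor Ikaros, which leaves only the first zinc finger of the protein. All fish came from a mixture of wild-type strains. The libraries are labelled as whole bodies at 5 days post fertilization (dpf). According to the methods each came from 1 fish, and if so the p-values describe the spread between these fish.

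Libraries of fr105 mutants held 34759504 to 38383935 counts, and those of wild-type siblings 38177112 to 39404324. *ikzf1* itself had 53145, 44700 and 29104 counts in fr105 mutants, against 8746, 6776 and 10579 in wild-type siblings, a log2 fold change of 2.37 (SE 0.23, adjusted p = 0.000362, edgeR). The table has 1 value per gene, so this cannot show whether the deleted part is missing. The label of a whole body did not match the defining markers of several tissues, which were at or near 0. Among the globins matched, adult counts also far exceeded larval counts in every library, as given below, but the larval beta genes *hbbe2*, *hbbe1.1*, *hbbe1.2* and *hbbe1.3* had no matched row. The tissue and age of these libraries are therefore stated by the labels and methods alone and remain uncertain. This bears on every adult and larval globin value given here. The 6 matched muscle markers together had 8 to 15 counts per library in fr105 mutants and 4 to 10 in wild-type siblings, with 3 of them at 0 in every library, the 2 matched lens markers had 0 to 2 counts in fr105 mutants and 0 to 6 in wild-type siblings, and the 2 matched neuronal markers had 0 counts in fr105 mutants and 0 to 2 in wild-type siblings. The 5 matched kidney tubule markers had 4254 to 7755 counts in fr105 mutants and 4306 to 8641 in wild-type siblings (0 of 4 tested were called by edgeR). Of the blood cell markers, the 5 neutrophil markers held 3.59% to 5.05% of counts in fr105 mutants and 2.35% to 3.63% in wild-type siblings, with overlap (1 of 5 called higher), the 6 macrophage markers held 0.0496% to 0.0685% and 0.0380% to 0.0474% (2 of 6 called higher), and the 5 B cell markers held 0.00498% to 0.00773% and 0.0134% to 0.0231% (4 of 5 called lower). Of the 7 T cell markers, 4 were called lower, and of the 5 thrombocyte markers 2 were called higher and 1 lower. Beside these counts, edgeR called 11.0% of all genes tested higher and 8.76% lower. The part of these cell types in the globin differences was not tested. In bulk samples, a different number of red cells and a different amount of globin RNA per red cell cannot be told apart.

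The adult globins did not move as 1 group. *hbba1* rose 1.87-fold in fr105 mutants and *hbaa1* was 1.80-fold higher without passing the test, whereas *hbaa2* and *hbba2* were at 0.571 and 0.646 of the wild-type level with wide and overlapping spreads. Levels are given as raw counts or as CPM, which are counts scaled to library size by the TMM method, and a gene was called when its Benjamini-Hochberg adjusted p in edgeR's quasi-likelihood test over 16630 genes was under 0.05. By this rule, 1 of the 5 globin genes with enough counts to be tested was called, *hbba1*, beside 11.0% of all genes called higher and 8.76% called lower in fr105 mutants. DESeq2 called 2 of them higher, *hbaa1* and *hbba1*, beside 11.7% of the genes it tested. The median log2 fold change was -0.01 over the 5 globin genes tested and -0.00483 over all genes.

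*hbba1* (ENSDARG00000097238), an adult beta globin, had 200718, 168569 and 187915 counts in fr105 mutants, against 141606, 65276 and 111353 in wild-type siblings. All 3 mutants lay above all 3 wild-type siblings, and wild-type library 5 was the lowest. The level was 5103 ± 366 CPM in fr105 mutants and 2724 ± 1004 CPM in wild-type siblings (SD, n = 3 each). The log2 fold change was 0.91 (SE 0.25, adjusted p = 0.0414, edgeR). The call was lost without mutant library 1, 2 or 3 or without wild-type library 6, where the adjusted p in edgeR reached up to 0.114, and the log2 fold change was 0.66 to 1.19 when any 1 library was left out.

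*hbaa1* (ENSDARG00000097011), an adult alpha globin, had 653758, 543373 and 643230 counts in fr105 mutants, against 488886, 225903 and 379113 in wild-type siblings. The groups again did not overlap, with the same order of libraries among the wild-type siblings as for *hbba1*. The level was 16864 ± 1660 CPM in fr105 mutants and 9364 ± 3455 CPM in wild-type siblings (SD, n = 3 each). The log2 fold change was 0.85 (SE 0.26, adjusted p = 0.0529, edgeR), which missed the threshold. With DESeq2 the adjusted p was 0.00362, and over all settings that kept the 6 libraries it was 0.00362 to 0.0578. Without wild-type library 4 the log2 fold change was 1.14 and edgeR called the gene (adjusted p = 0.0141). Leaving out any other library gave no call (adjusted p = 0.0645 to 0.147, edgeR). *hbaa1* and *hbba1* were the 2 globin genes of the 5 tested whose libraries were higher in fr105 mutants without overlap, a pattern found in 21.3% of all genes tested.

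*hbaa2* (ENSDARG00000069735), the other adult alpha globin, had 95917, 58160 and 115928 counts in fr105 mutants, against 284835, 106335 and 113448 in wild-type siblings. Wild-type library 4 stood above the other 5 libraries, which overlapped. The level was 2480 ± 851 CPM in fr105 mutants and 4344 ± 2683 CPM in wild-type siblings (SD, n = 3 each). The log2 fold change of -0.81 (SE 0.42) did not pass the test (adjusted p = 0.205, edgeR), and it was -0.17 without wild-type library 4. That library also had the most counts on 7 liver markers, 831 against 80 to 215 in the other libraries. The part of this in the globin values was not tested.

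*hbba2* (ENSDARG00000069734), the other adult beta globin, had 171393, 92780 and 201851 counts in fr105 mutants, against 420290, 154016 and 196579 in wild-type siblings. The same wild-type library was highest and the same mutant library, number 2, was lowest as for *hbaa2*. The level was 4278 ± 1608 CPM in fr105 mutants and 6627 ± 3797 CPM in wild-type siblings (SD, n = 3 each). The log2 fold change of -0.63 (SE 0.41) did not pass the test (adjusted p = 0.310, edgeR), and it was -0.05 without wild-type library 4.

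2 further rows of the table carry adult globin names and had profiles near those of *hbaa1* and *hbba1*. The row ENSDARG00000079078 (*si:ch211-5k11.8*), which is named *hbaa1* in the single-cell tables of the study, had 711683, 615366 and 949143 counts in fr105 mutants, against 651361, 322005 and 476001 in wild-type siblings. Its log2 fold change was 0.76 (SE 0.28, adjusted p = 0.0927, edgeR). The row ENSDARG00000089087 is named *ba1* in the supplementary tables, while the gene name table gives it the human symbol HBE1. It had 1158630, 932630 and 1116482 counts in fr105 mutants, against 929512, 439645 and 712856 in wild-type siblings, a log2 fold change of 0.72 (SE 0.25, adjusted p = 0.0816, edgeR). Neither passed the test with edgeR, and DESeq2 called both (adjusted p = 0.0191 for *si:ch211-5k11.8* and 0.0152 for *ba1*). Over all settings that kept the 6 libraries the adjusted p was 0.0191 to 0.102 for *si:ch211-5k11.8* and 0.0152 to 0.0902 for *ba1*. Both genes were higher in fr105 mutants without overlap in CPM, a pattern found in 21.3% of all genes tested. Globin copies can be near-identical in sequence, and the default of the counting tool leaves out reads that map to several places, so the division of reads among these rows is uncertain.

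**Figure D1:**
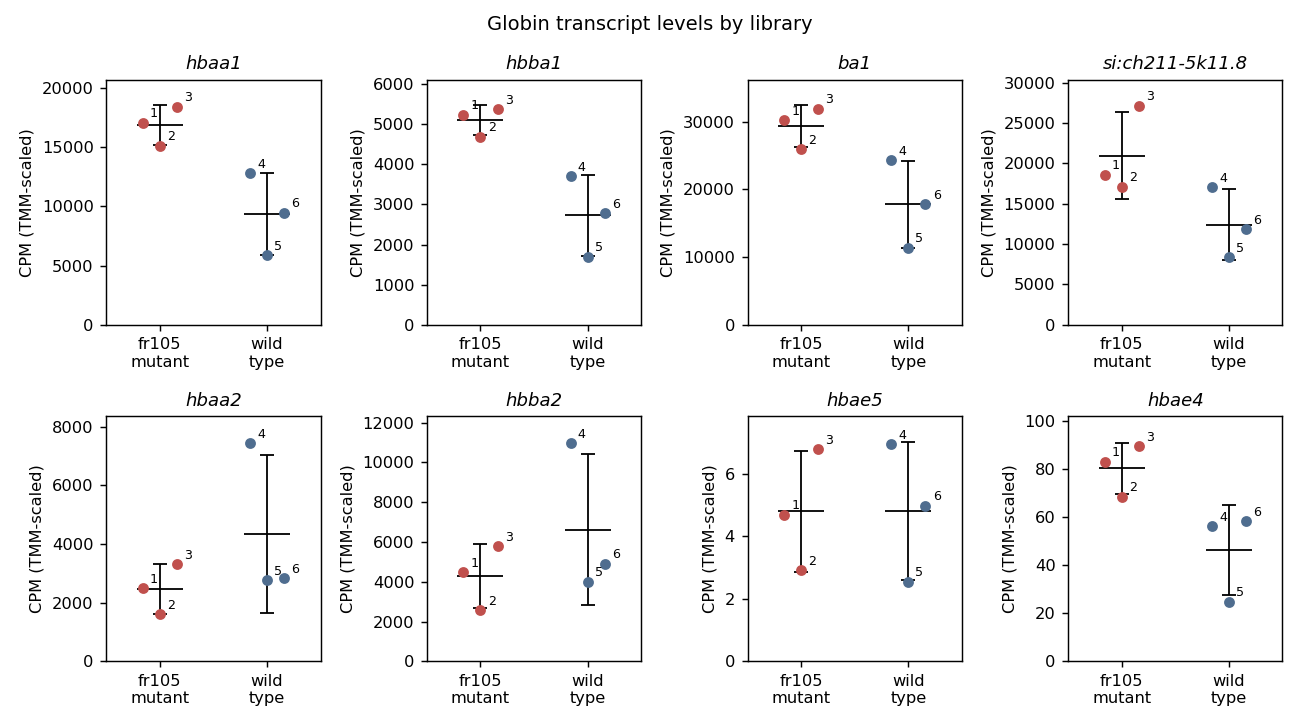
TMM-scaled CPM (y axis from 0) of 8 globin rows in the 3 fr105 mutants (left, red, libraries 1 to 3) and the 3 wild-type siblings (right, blue, libraries 4 to 6), with bars for the mean ± SD. *hbaa1*, *hbba1*, *ba1*, *si:ch211-5k11.8* and *hbae4* do not overlap between groups, while *hbaa2*, *hbba2* and *hbae5* do, with wild-type library 4 highest. Of all genes tested, 21.3% were higher in mutants without overlap.

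Over the 6 libraries of both groups pooled, log2 CPM of the adult genes fell into 2 profiles, each holding an alpha and a beta gene. *hbaa1* and *hbba1* were correlated with Pearson's r of 0.998, and *hbaa1* had r of 0.997 with *ba1*, 0.959 with *si:ch211-5k11.8* and 0.957 with *hbae4*. *hbaa2* and *hbba2* were correlated with r of 0.984. Between the profiles the correlation was -0.03 for *hbaa1* with *hbaa2* and 0.04 for *hbba1* with *hbba2*. Within each group, however, the 4 adult genes ranked the libraries alike. From highest to lowest CPM the order was 3, 1 and 2 in fr105 mutants and 4, 6 and 5 in wild-type siblings. The low r between the profiles was thus seen across the groups and does not describe the libraries within a group. The r values are descriptions over 6 libraries that share the difference in genotype, and read sharing between near-identical copies was not tested.

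**Figure D2:**
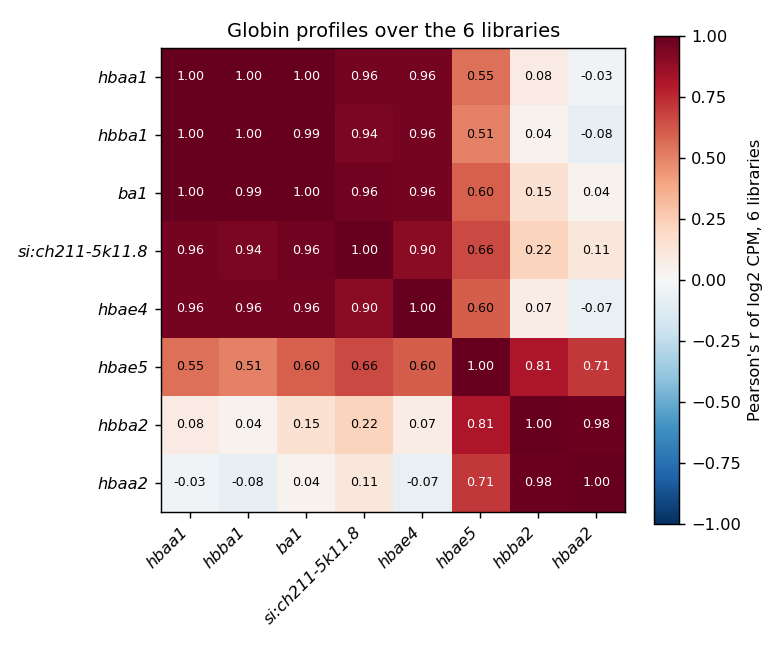
Pearson's r of log2 CPM between 8 globin rows over the 6 libraries of both groups pooled, red for positive and blue for negative values. *hbaa1*, *hbba1*, *ba1*, *si:ch211-5k11.8* and *hbae4* form a block with r of at least 0.90, *hbaa2* and *hbba2* form a pair, and r between *hbaa1* and *hbaa2* is -0.03.

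The ratio of the 2 alpha genes and that of the 2 beta genes were both higher in every mutant than in every wild-type sibling. Because *hbaa1* followed *hbba1* and *hbaa2* followed *hbba2* over the libraries, these are not 2 separate results. A ratio of counts within 1 library needs no scaling between libraries, but it is not corrected for transcript length, so only its difference between libraries is read. The *hbaa1* to *hbaa2* ratio was 6.82, 9.34 and 5.55 in fr105 mutants, against 1.72, 2.12 and 3.34 in wild-type siblings. The geometric mean was 3.07-fold higher in fr105 mutants (log2 difference 1.62, exact permutation p = 0.1, two-sided, n = 3 each), and 0.1 is the smallest p that 3 against 3 can give. Leaving out any 1 library gave a log2 difference of 1.41 to 1.89. The *hbba1* to *hbba2* ratio was 1.17, 1.82 and 0.931 in fr105 mutants, against 0.337, 0.424 and 0.566 in wild-type siblings. This was a 2.90-fold difference in geometric means (log2 difference 1.54, exact permutation p = 0.1, two-sided, n = 3 each), and 1.27 to 1.75 with 1 library left out.

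The ratio of the alpha to the beta gene of the same profile overlapped between the groups. The profiles were drawn from these same libraries, so a similar ratio in every library was largely set in advance. These ratios were added after the data were seen and are descriptions. The *hbaa1* to *hbba1* ratio was 3.26, 3.22 and 3.42 in fr105 mutants, against 3.45, 3.46 and 3.40 in wild-type siblings (log2 difference -0.06, exact permutation p = 0.2, n = 3 each). The *hbaa2* to *hbba2* ratio was 0.560, 0.627 and 0.574 in fr105 mutants, against 0.678, 0.690 and 0.577 in wild-type siblings (log2 difference -0.14, exact permutation p = 0.2, n = 3 each). With 1 library left out, the log2 difference was -0.09 to -0.04 for *hbaa1* to *hbba1* and -0.22 to -0.09 for *hbaa2* to *hbba2*.

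**Figure D3:**
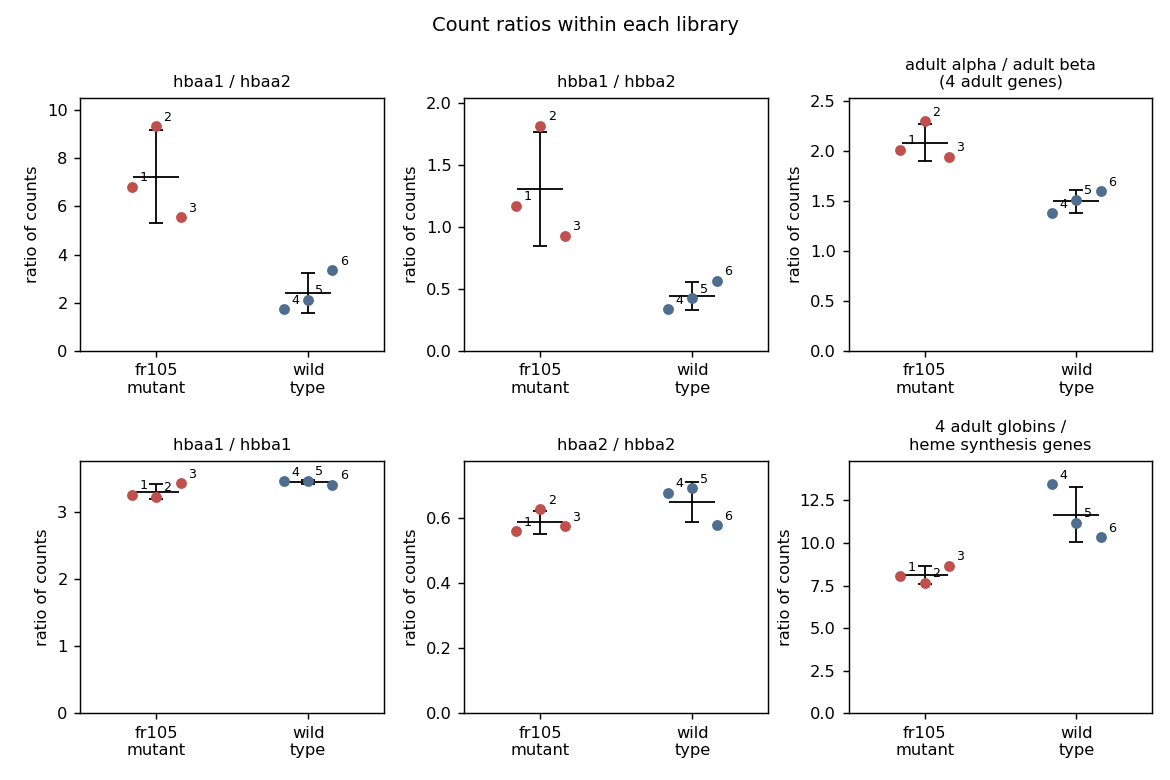
Ratio of counts within each library (y axes from 0) for the 3 fr105 mutants (left, red) and the 3 wild-type siblings (right, blue), with bars for the mean ± SD. *hbaa1* over *hbaa2* is 5.55 to 9.34 in mutants and 1.72 to 3.34 in wild type, whereas *hbaa1* over *hbba1* is 3.22 to 3.42 and 3.40 to 3.46.

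As a share of the counts on the 6 adult-type rows, *hbaa1* made up 21.5% ± 1.31 in fr105 mutants and 17.7% ± 1.22 in wild-type siblings, and *hbba1* 6.52% ± 0.597 and 5.14% ± 0.399 (SD, n = 3 each). *hbaa2* made up 3.07% ± 0.608 in fr105 mutants and 7.86% ± 2.04 in wild-type siblings, and *hbba2* 5.29% ± 1.27 and 12.0% ± 2.28 (SD, n = 3 each). For each of these 4 genes the shares of the groups did not overlap (exact permutation p = 0.1, n = 3 each). The shares within a library have a fixed sum, so a lower share of some rows raises that of others. The 4 are therefore not separate results and in part restate the ratios above. The shares of *si:ch211-5k11.8* (26.3% ± 2.94 and 23.6% ± 1.13) and *ba1* (37.4% ± 2.29 and 33.7% ± 1.99) overlapped (exact permutation p = 0.3 and 0.2, n = 3 each).

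**Figure D4:**
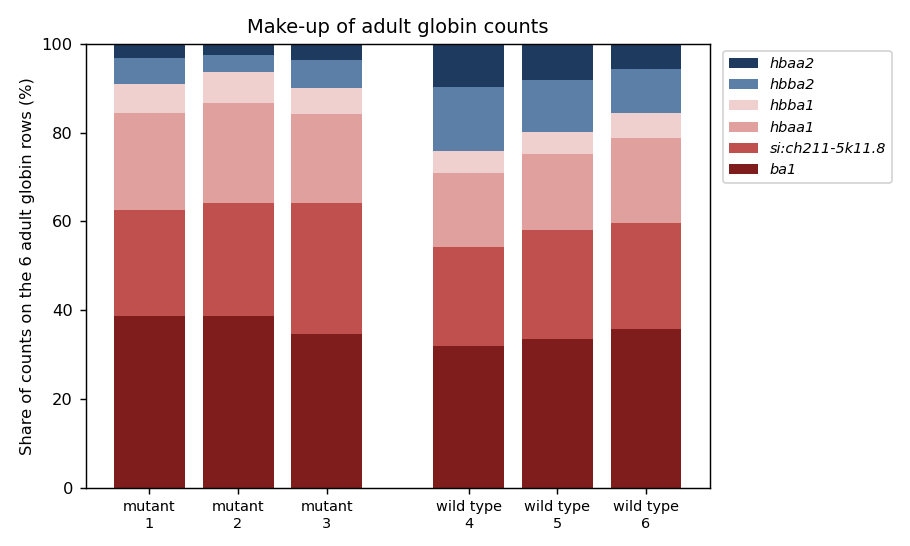
Share in percent (y axis from 0 to 100) of the counts on 6 adult-type globin rows that each row takes in the 3 fr105 mutants (left) and the 3 wild-type siblings (right). *hbaa2* and *hbba2* (blue) together take the upper part of each bar, with mean shares of 3.07% (*hbaa2*) and 5.29% (*hbba2*) in mutants, against 7.86% and 12.0% in wild-type siblings.

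The sum of the 4 adult genes did not differ beyond the spread between libraries. It took 2.92%, 2.36% and 3.31% of counts in fr105 mutants, against 3.50%, 1.42% and 2.03% in wild-type siblings, or 2.86% ± 0.475 and 2.32% ± 1.07 (SD, n = 3 each). The log2 difference was 0.39 (exact permutation p = 0.5, two-sided, n = 3 each), and it was 0.089 without wild-type library 5 and 0.741 without wild-type library 4. With both further adult-type rows added, the means were 7.88% ± 1.33 in fr105 mutants and 5.35% ± 2.15 in wild-type siblings (log2 difference 0.62, exact permutation p = 0.2, n = 3 each).

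The adult alpha to beta ratio, from the 4 adult genes, was 2.01, 2.30 and 1.95 in fr105 mutants, against 1.38, 1.52 and 1.6 in wild-type siblings (log2 difference 0.48, exact permutation p = 0.1, n = 3 each). With the 2 further rows added it was 0.955, 1.02 and 1.13 in fr105 mutants, against 0.956, 0.993 and 0.949 in wild-type siblings, and the groups overlapped (log2 difference 0.10, exact permutation p = 0.3, n = 3 each). With *si:ch211-5k11.8* alone added, a planned setting, it was 3.93, 4.66 and 4.38 in fr105 mutants, against 2.54, 2.98 and 3.15 in wild-type siblings, without overlap (log2 difference 0.58, exact permutation p = 0.1, n = 3 each). The separation of the groups was therefore seen with the 4 adult genes and with *si:ch211-5k11.8* added, and not once *ba1* was added as well.

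The larval genes among the 9 matched had between 0 and 266 counts in any library. *hbae1.1* (ENSDARG00000089475) and *hbae3* (ENSDARG00000079305) had 0 counts in every library, which allows a share of up to 7.61e-06% to 8.63e-06% of counts, and reads shared by near-identical copies would not be seen. *hbae1.3* (ENSDARG00000089124) had 8, 6 and 16 counts in fr105 mutants, against 17, 4 and 2 in wild-type siblings, and fell below the low-count filter. Without the filter edgeR gave an adjusted p of 0.753, and DESeq2 gave 0.804. The ratio of its summed counts was 1.39 (95% interval 0.778 to 2.497, counting error only), with overlapping libraries. *hbbe3* (ENSDARG00000038147), the larval beta gene that could be matched, had 6, 8 and 14 counts in fr105 mutants, against 2, 0 and 2 in wild-type siblings. This is 28 against 4 counts, a ratio of 7.43 (95% interval 2.60 to 29.2, counting error only). It fell below the low-count filter, and without the filter edgeR gave an adjusted p of 0.106 and DESeq2 gave 0.0809. Reads without molecular identifiers are not independent molecules, so these intervals are lower bounds on the error.

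*hbae5* (ENSDARG00000045142) was the larval member with enough counts to be tested. It had 180, 105 and 237 counts in fr105 mutants, against 266, 98 and 200 in wild-type siblings. The groups overlapped, and the log2 fold change was -0.01 (SE 0.40, adjusted p = 0.990, edgeR), with a sign that turned with the library left out (-0.33 to 0.35). Over the 6 libraries its r was 0.81 with *hbba2* and 0.71 with *hbaa2*. It was 0.66 with *si:ch211-5k11.8*, 0.60 with *hbae4*, 0.60 with *ba1*, 0.55 with *hbaa1* and 0.51 with *hbba1*. The larval members together had 194, 119 and 267 counts in fr105 mutants, against 285, 102 and 204 in wild-type siblings. There were 5782, 7251 and 4303 adult counts for each larval count in fr105 mutants, against 4686, 5407 and 3924 in wild-type siblings, not corrected for length. The larval sum lacks *hbbe2*, *hbbe1.1*, *hbbe1.2* and *hbbe1.3*, which had no matched row, so these values do not give the whole larval level. The log2 difference of the larval to adult ratio was -0.29 with overlapping groups (exact permutation p = 0.4, n = 3 each), and -0.48 to -0.11 with 1 library left out: -0.11 without mutant library 2, -0.17 without wild-type library 6 and -0.48 without mutant library 3. The direction depended on the larval genes counted. With *hbae4*, a larval alpha gene outside the 10 with more counts than these together, the larval sum was 3380, 2588 and 3398 in fr105 mutants, against 2443, 1063 and 2548 in wild-type siblings. There were then 332, 333 and 338 adult counts for each larval count in fr105 mutants, against 547, 519 and 314 in wild-type siblings, a log2 difference of the larval to adult ratio of 0.42 with the groups still overlapping (exact permutation p = 0.4, n = 3 each).

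Of the other globins, *hbbe1.1*, *hbbe1.2*, *hbbe1.3*, *hbz* and *cygb1* had no matched row, while 7 could be matched and 3 tested. Of these 3, edgeR called 1 higher, beside 11.0% of all genes, and DESeq2 called 2 higher, beside 11.7%. *hbae4* (ENSDARG00000045144) lies in the same cluster as *hbae5* and had 3186, 2469 and 3131 counts in fr105 mutants, against 2158, 961 and 2344 in wild-type siblings. Its level was higher in fr105 mutants without overlap, as in 21.3% of all genes tested. Its log2 fold change of 0.79 (SE 0.29) did not pass the edgeR test (adjusted p = 0.0945). Of 2 further rows to which the gene name table gives the symbol HBE1, ENSDARG00000045143 had 23, 13 and 18 counts in fr105 mutants, against 16, 6 and 6 in wild-type siblings (log2 fold change 1.03, SE 0.54, adjusted p = 0.209, edgeR), and ENSDARG00000087390 had 0 in every library. *hbae1.2* had 6, 0 and 5 counts in fr105 mutants, against 1, 2 and 0 in wild-type siblings. Among globins outside haemoglobin, *mb* (myoglobin) had 303, 94 and 124 counts in fr105 mutants, against 56, 71 and 32 in wild-type siblings, and was called higher (log2 fold change 1.78, SE 0.47, adjusted p = 0.034, edgeR). That call was lost without 5 of the 6 libraries in turn, the exception being mutant library 2. *adgb* had 18, 0 and 8 counts in fr105 mutants, against 70, 16 and 22 in wild-type siblings (log2 fold change -1.97, adjusted p = 0.182, edgeR), while *ngb*, *cygb2* and *xgb* had at most 2 counts in any library.

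The gene order in the GRCz12tu assembly of RefSeq, a later build than the GRCz10 of these counts, places the adult genes in 1 cluster beside *mpg* and *nprl3*, in the order *hbaa2*, *hbba2*, *ba1l* (no row of the table was matched to it), *hbaa1*, *hbba1*, *si:ch211-5k11.8* and then the larval *hbbe1* and *hbae1* genes and *hbae3*. The row *ba1* was not given a place in this order. The 2 genes of the profile that was not higher in mutants, *hbaa2* and *hbba2*, are neighbours, and they lie at the end next to *nprl3*. *hbae4*, *hbbe3*, *hbbe2* and *hbae5* form a second cluster in that order. The flanking genes were chosen after the members' values were seen: *nprl3* had a log2 fold change of -0.12 (SE 0.11, adjusted p = 0.467, edgeR) and *mpg*, a DNA repair glycosylase, one of -0.64 (SE 0.20, adjusted p = 0.056, edgeR).

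**Figure D5:**
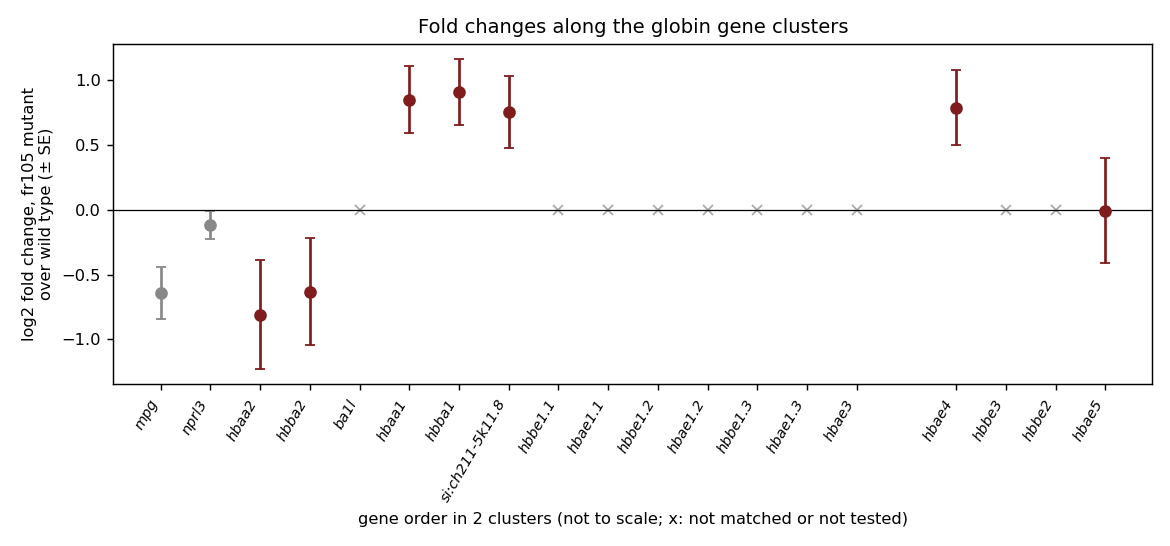
Log2 fold change of fr105 mutants over wild-type siblings (y axis, bars ± SE) for the globin genes in their order along the 2 clusters (x axis, not to scale), with grey points for the flanking genes *mpg* and *nprl3* and crosses for genes not matched or not tested. *hbaa2* and *hbba2*, at -0.81 and -0.63, lie side by side, and *hbaa1*, *hbba1* and *si:ch211-5k11.8*, at 0.85, 0.91 and 0.76, follow. The row *ba1* is not shown.

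Genes of heme synthesis make the cofactor that globin chains bind. This list, like those of regulators, red cell genes and haemoglobin clearance below, was chosen with earlier results of these data known. Of 11 matched and tested, 6 were called higher and 0 lower with edgeR, beside 11.0% and 8.76% of all genes, with a median log2 fold change of 0.79. DESeq2 called 9 higher, beside 11.7% of the genes it tested. *hmbsb*, which forms hydroxymethylbilane, had 16268, 12991 and 18220 counts in fr105 mutants, against 9724, 5082 and 6323 in wild-type siblings (log2 fold change 1.27, SE 0.25, adjusted p = 0.0111, edgeR). *urod*, which acts on uroporphyrinogen, had 8125, 7352 and 8529 counts in fr105 mutants, against 5588, 3645 and 4936 in wild-type siblings (0.86, SE 0.16, adjusted p = 0.00957, edgeR), and *uros*, the next enzyme after *hmbsb*, was called at 0.71 (adjusted p = 0.0406, edgeR), a call kept only without wild-type library 4 when 1 library was left out. *alas2*, the erythroid enzyme that starts the pathway, had 89003, 70406 and 80510 counts in fr105 mutants, against 65480, 29403 and 51406 in wild-type siblings (0.81, SE 0.26, adjusted p = 0.0638, edgeR), and did not pass. DESeq2 called it (adjusted p = 0.00745), and over all settings that kept the 6 libraries its adjusted p was 0.00745 to 0.0704. Counts of the 4 adult globins per count of heme synthesis genes were 8.05, 7.66 and 8.67 in fr105 mutants, against 13.4, 11.2 and 10.3 in wild-type siblings (log2 difference -0.51, exact permutation p = 0.1, n = 3 each), without overlap. With both further rows the difference was -0.28 (exact permutation p = 0.1, n = 3 each).

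Among regulators of globin genes and red cell genes, 5 of 17 tested regulators were called higher with edgeR (6 with DESeq2) and 0 lower, beside 11.0% higher and 8.76% lower of all genes with edgeR and 11.7% higher with DESeq2, with a median log2 fold change of 0.43. The count was 7 without wild-type library 4, 1 without mutant library 1 or 3, 2 without mutant library 2 or wild-type library 6, and 3 without wild-type library 5. They were *gata1a*, *tal1*, *klf3*, *nfe2* and *zfpm1*, all transcription factors or cofactors of the erythroid lineage. *tal1* had a log2 fold change of 0.73 (SE 0.19, adjusted p = 0.0308, edgeR), a call lost without any 1 mutant library or wild-type library 6. *klf1*, which binds beta globin promoters in mammals, had one of 0.67 (SE 0.23, adjusted p = 0.0759, edgeR), *klf17* one of 0.43 (adjusted p = 0.0817, edgeR) and *myb* one of -0.17 (adjusted p = 0.319, edgeR). *bcl11aa*, named for a factor that silences fetal globin in human, was at 0.00 (adjusted p = 0.985, edgeR).

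Of 14 red cell membrane and cytosol genes tested, 4 were called higher and 0 lower with edgeR, beside 11.0% and 8.76% of all genes, with a median log2 fold change of 0.60, and DESeq2 called 6 higher, beside 11.7%. The 4 were *hemgn*, *blvrb*, *gpx1a* and *tfr1a*. The count was 1 without mutant library 1 or 3, 2 without wild-type library 6 and 9 without wild-type library 4. *slc4a1a*, the red cell anion exchanger, did not pass (0.54, adjusted p = 0.163, edgeR), nor did *cahz*, a red cell carbonic anhydrase (0.85, adjusted p = 0.0728, edgeR) or *prdx2*, a peroxide-reducing enzyme (0.29, adjusted p = 0.265, edgeR), while *gpx1a*, a glutathione peroxidase, rose (0.67, adjusted p = 0.0151, edgeR), a call lost without mutant library 1 or 3 (adjusted p = 0.0572 and 0.0553, edgeR). Of the haemoglobin clearance list, *blvra*, a biliverdin reductase, and *slc40a1*, the cellular iron exporter, were called higher, 2 of 2 tested beside 11.0% of all genes, with a median of 1.16, and 1 was called without mutant library 1 or 3 or wild-type library 5 or 6. The adult globin to red cell gene ratio was 2.41, 2.14 and 2.395 in fr105 mutants, against 3.31, 2.59 and 2.51 in wild-type siblings (log2 difference -0.27, exact permutation p = 0.1, n = 3 each), and it was -0.14 without wild-type library 4. With *slc4a1a* alone below the line the difference was -0.18, and with both further rows it was -0.04, both with overlapping groups (exact permutation p = 0.2 and 0.7, n = 3 each).

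Of 12023 genes with a mean of at least 100 counts, those most like the summed adult globin level over the 6 libraries, by Pearson's r of log2 CPM, were ENSDARG00000100015 (0.994), *STX6* (0.992), *FBXW5* (0.991), *tubb1* (0.984) and *sec14l8* (0.980). An r of at least 0.9 was found for 1.25% of genes, and the median r was 0.04. None of the 5 passed the test with edgeR (adjusted p of 0.33 to 0.621).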

How the data were processed

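The authors made the poly-A libraries, aligned reads to GRCz10 (STAR 2.5.2b-1) and used featureCounts 1.6.0.1 for gene counts; the deposited values are raw counts per gene for 3 fr105 mutants and 3 wild-type siblings, and the study's own comparison used DESeq2 2.11.40.1. From these counts, fold changes were computed in R 4.3.3 with edgeR 4.0.16 (TMM scaling, filterByExpr with at least 10 counts, quasi-likelihood F test, two-sided, Benjamini-Hochberg over 16630 genes, threshold 0.05) and, as an alternative, DESeq2 1.42.0. Ratios were compared by exact permutation. Python 3.11.15, pandas 2.3.3, SciPy 1.17.1 and matplotlib 3.10.9 made the tables and plots. The methods state default parameters for the tools unless otherwise given, and by default featureCounts ignores strand although the libraries were stranded. Members and lists were chosen with earlier results of these data known. The named genes are the 10 members, the second *hbaa1* row, all globins that could be matched, the 4 genes of highest mean count in each of 3 lists and the 5 genes most correlated with the adult globin sum; other genes named were chosen after their values were seen. Symbols were matched through the supplementary tables, a gene name table and RefSeq (assembly GRCz12tu): 9 of 10 members matched. *hbba2* was matched through a RefSeq synonym. No 2 libraries of a group differed by as little as sampling noise (smallest mean chi-square per gene 44.3). On simulated counts for 16304 genes, 42 of 100 genes changed by 0.85 and 94 of 100 changed by 1.5 on the log2 scale were called, with 14 false calls. Other settings tried were 4 scalings (upper quartile, RLE, library size, and TMM without globin rows), a robust fit, a filter at a mean of 50 counts or none, an adjusted p of 0.01 and each library left out in turn. Adding the second *hbaa1* row alone was planned. Adding both further adult-type rows and adding *hbae4* to the larval sum were done after the data were seen. So were the alpha to beta ratios of a profile, with all libraries or with 1 left out. The shares of each row in the adult-type counts were not among the planned tests. Sequences were not used here.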

Additional observations from a re-analysis of the deposited data

How the results depend on the processing

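The count of globin genes called (1, *hbba1*) became 2 without the low-count filter and 2 with DESeq2, both times *hbaa1* and *hbba1*. It was 0 at an adjusted p of 0.01 with edgeR, where 2 members had an unadjusted p under 0.05 and DESeq2 called 2 at 0.05, and leaving out single libraries gave 0 to 2: 0 without mutant library 1, 2 or 3 or wild-type library 6, 1 without wild-type library 5 and 2 without wild-type library 4. The other globins called (1, *mb*) became 2 with DESeq2 and ranged from 0 to 1. Calls ranged from 1 to 7 for the regulators, from 1 to 9 for the red cell genes and from 1 to 2 for the clearance genes, and from 4 to 8 for heme synthesis. *hbae5* turned sign to 0.0012 without the low-count filter and took values of -0.33 to 0.35 when single libraries were dropped. *hbaa1* kept its direction in every setting, with log2 fold changes of 0.60 to 1.14 with 1 library left out. The larval to adult ratio turned to a log2 difference of 0.42 with *hbae4* added, by construction of the larval sum, which *hbae4* then dominates. The cause of the other shifts was not tested. No paired analysis was possible because the libraries are numbered 1 to 3 and 4 to 6, with no number shared between the groups. With 3 libraries per group the two-sided exact permutation test cannot give a p under 0.1, and *hbae1.3* and *hbbe3* fell below the low-count filter.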
